A study of Mus musculus with 3 samples.

Results

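The potassium channel genes described here are all genes listed in the features files whose symbol starts with Kcn, without Kcnj10, without any pseudogene symbol, and with at least 50 unique molecular identifiers (UMIs, 1 per captured RNA molecule) summed over the 3 libraries. Of 99 Kcn symbols among 55357 listed genes, 66 met the rule, 1 was left out by name and 32 held fewer than 50 UMIs. The limit was approached from above by Kcna5 with 53 UMIs, and the nearest genes outside it were Kcnq1 with 45 and Kcnab3os with 42. The members comprise 23 voltage-gated (Kv) pore subunits, 9 tandem-pore-domain (K2P) leak subunits, 8 inward rectifier (Kir) pore subunits, 7 calcium- or sodium-activated pore subunits, 3 electrically silent Kv modifiers, 13 accessory or interacting proteins, and 3 non-coding RNAs that share only the locus name (Kcnq1ot1, Kcnd3os and Kcnmb4os2).

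RNA of single cells was measured with 10x Genomics chemistry in left-sided brain tissue around the lesion of male C57BL/6 mice aged 6 to 8 weeks. The 3 groups were sham mice, mice given PBS for 3 days after traumatic brain injury (TBI+PBS), and mice given interleukin-25 at 1 µg per mouse within 30 minutes of TBI and then daily over 3 days (TBI+IL-25). Each group is 1 library, and neither the number of mice behind a library nor the injury model is stated in the sources used here. Group and library therefore cannot be told apart, no test between groups exists, and every interval below is a 95% interval that covers counting error only.

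Potassium channels set the resting potential of a cell and carry the outward current that ends its excitation. K2P channels are open near rest, Kir channels pass current best near the potassium equilibrium potential, Kv channels open on depolarisation, and calcium-activated channels open when cytosolic calcium rises. In the brain, astrocytes take up and redistribute the potassium that neurons release, while in microglia potassium efflux through K2P, Kv and calcium-activated channels is linked to surveillance, volume control and inflammasome activation.

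The libraries held 8939, 10643 and 14222 barcodes with 39536447, 58148289 and 61372408 UMIs in sham, TBI+PBS and TBI+IL-25, and 8710, 10299 and 13532 cells were kept with a median of 4111, 4666 and 3841 UMIs. Pairs of libraries shared 24 to 39 barcodes. The cells formed 26 clusters in 13 classes named from marker genes, and most were microglia-like (4997, 4591 and 5531 cells) or astrocyte-like (3282, 4519 and 6687 cells). No cluster was named as mature neurons. Members summed to 148772 UMIs, which is 1113, 969 and 789 CPM (UMI counts scaled to 1000000 UMIs in all) over all barcodes of the sham, TBI+PBS and TBI+IL-25 libraries. Since the mix of cells differed between libraries, all further values are CPM within a class.

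The members were spread over the classes. For 41 members the highest class held at least 50 of their UMIs, and for 28 of these 41 the lowest library of that class lay above the highest library of the next class. The same was true of 48.3% of all 13133 genes with that many UMIs. By this ranking over 9 classes, 15 of the 41 were highest in astrocyte-like cells, 6 in microglia-like, 5 in neuroblast-like, 4 each in oligodendrocyte-like, choroid plexus-like and ependymal-like, 2 in endothelial-like and 1 in monocyte/macrophage-like cells. The need for 50 UMIs favoured large classes. All 15 members highest in astrocyte-like and all 6 in microglia-like cells met it. Only 4 of 13 did in ependymal-like, 5 of 11 in neuroblast-like and 2 of 5 in endothelial-like cells. No share over all genes is given for these class counts, so they are not a trait of the members. Fibroblast-like, pericyte-like, neutrophil-like and B cell-like cells held under 500000 UMIs each and were not ranked. Some members were higher there than in their highest ranked class. In fibroblast-like cells Kcnj2 had a mean of 82.8 CPM against 48.0 in endothelial-like cells. Kcnk2 had 90.8 against 69.9 in ependymal-like cells and Kcne4 129 against 0.921 in endothelial-like cells, whereas Kcnj8 was lower, at 19.2 against 32.2. Clustering did not use the members as variable genes, but their class differences remain a description. The remaining members, among them Kcna3, Kcna5, Kcnk3, Kcnk5 and Kcne4, held fewer than 50 UMIs in their highest ranked class, and their order of classes was not read.

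Summed over members, astrocyte-like cells carried 1912 CPM for sham, 1581 for TBI+PBS and 1164 for TBI+IL-25. Microglia-like cells carried 545, 526 and 436 CPM, and oligodendrocyte-like cells 1193, 1313 and 1255. Choroid plexus-like cells had 1416, 1295 and 1369 CPM and neuroblast-like cells 697, 792 and 756. The sums in astrocyte-like and microglia-like cells were thus lowest in TBI+IL-25, whereas the last 3 classes showed no such order. A few members weigh heavily in these sums, among them the non-coding Kcnq1ot1. In sham, TBI+PBS and TBI+IL-25 it measured 228, 214 and 110 CPM in astrocyte-like and 156, 211 and 166 CPM in microglia-like cells. Astrocyte-like cells held Kcnk1 at 632, 488 and 274 CPM and Kcnn2 at 297, 176 and 72.2 CPM, and microglia-like cells Kcnk13 at 119, 133 and 84.8 CPM. Where cells of a class differ in state, a lower class level may mean fewer cells with the gene or less of it in each, and the sums do not tell these apart.

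Microglia-like cells held 3 well-counted leak channel genes. Kcnk13 and Kcnk12 encode the halothane-inhibited pair of the K2P family. Kcnk13 is the main resting potassium conductance of microglia and is potentiated through the ATP/ADP receptor P2ry12. Kcnk6, the third of these K2P genes, encodes a potassium efflux channel of macrophages. Kcnj2 encodes a strong inward rectifier. Of Kcnk13, Kcnk12 and Kcnj2, Kcnk12 alone passed 2-fold in TBI+PBS against sham, and none did in TBI+IL-25 against TBI+PBS. In TBI+IL-25 against TBI+PBS, Kcnk13 and Kcnk12 were lower and Kcnj2 was higher, whereas Kcnk13 and Kcnj2 were both higher in TBI+PBS than in sham. The 250 bases before the annotated starts of these genes are shown so that their windows can be read side by side. They are printed 5′ to 3′ on the gene's own strand from RefSeq (GRCm38.p6), and capitals mark GAGGAA or its reverse complement, a core for the myeloid factor PU.1 and other ETS proteins, searched on both strands.
Kcnk13, chr12:99964249-99964498, plus strand: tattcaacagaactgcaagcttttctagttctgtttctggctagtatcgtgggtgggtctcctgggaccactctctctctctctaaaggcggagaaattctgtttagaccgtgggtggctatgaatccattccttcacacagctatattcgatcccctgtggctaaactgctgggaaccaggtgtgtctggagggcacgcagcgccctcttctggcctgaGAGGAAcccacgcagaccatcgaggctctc
Kcnk12, chr17:87797995-87798244, minus strand: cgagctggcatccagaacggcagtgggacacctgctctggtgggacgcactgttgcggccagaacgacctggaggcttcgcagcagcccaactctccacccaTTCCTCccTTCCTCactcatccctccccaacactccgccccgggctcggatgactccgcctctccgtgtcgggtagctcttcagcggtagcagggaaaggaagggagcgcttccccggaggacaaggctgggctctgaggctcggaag
Kcnj2, chr11:111065914-111066163, plus strand: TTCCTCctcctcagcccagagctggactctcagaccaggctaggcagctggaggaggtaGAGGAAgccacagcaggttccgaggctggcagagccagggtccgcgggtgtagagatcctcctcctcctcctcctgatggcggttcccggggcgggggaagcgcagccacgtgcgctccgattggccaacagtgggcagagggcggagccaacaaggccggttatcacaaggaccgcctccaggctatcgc
The motif occurs 1 time in the Kcnk13 window and 2 times in each of the other windows, and the windows hold 52.8%, 64.8% and 65.6% G or C. GAGGAA was found in 20 of 72 windows that matched 50 of the 66 members (27.8%), against 23.3% of all 32851 RefSeq windows of that length. The shares are close, and a match is a description of letters only.

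Kcnk13 measured 119 CPM for sham, 133 for TBI+PBS and 84.8 for TBI+IL-25 microglia-like cells. It was a little higher in TBI+PBS than in sham, with a ratio of 1.12 (1.06 to 1.18), and lower in TBI+IL-25 than in TBI+PBS, with a ratio of 0.636 (0.603 to 0.671). The second difference was also seen inside clusters: in 8 of 8 microglia-like clusters Kcnk13 was lower in TBI+IL-25, with ratios of 0.589 to 0.943. Inside clusters the first was mixed, higher in 3 and lower in 2 of 5. Here and below, cluster counts take any ratio above or below 1, without counting error. Clusters of the same libraries are not replicates. P2ry12, the receptor gene upstream of this channel, measured 4096 CPM for sham, 1506 for TBI+PBS and 892 for TBI+IL-25.

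Kcnk12 measured 54.0 CPM for sham, 17.8 for TBI+PBS and 9.09 for TBI+IL-25. The 3 intervals did not overlap, and the ratios were 0.330 (0.294 to 0.368) for TBI+PBS over sham and 0.511 (0.436 to 0.597) for TBI+IL-25 over TBI+PBS. Clusters of the class were filled very unequally: cluster 0 held 64.1% of the sham microglia-like cells, against 17.9% in the TBI+PBS library and 2.3% in the TBI+IL-25 library. Inside cluster 0 Kcnk12 still measured 52.9 CPM for sham, 29.1 for TBI+PBS and 27.2 for TBI+IL-25, so the ratio of TBI+PBS over sham there was 0.550. It was lower in 4 of 5 clusters in TBI+PBS against sham and in 7 of 8 in TBI+IL-25 against TBI+PBS. The difference after injury was therefore smaller within cluster 0 than over the class, and the part of cluster make-up in the remainder was not tested further.

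**Figure D1:**
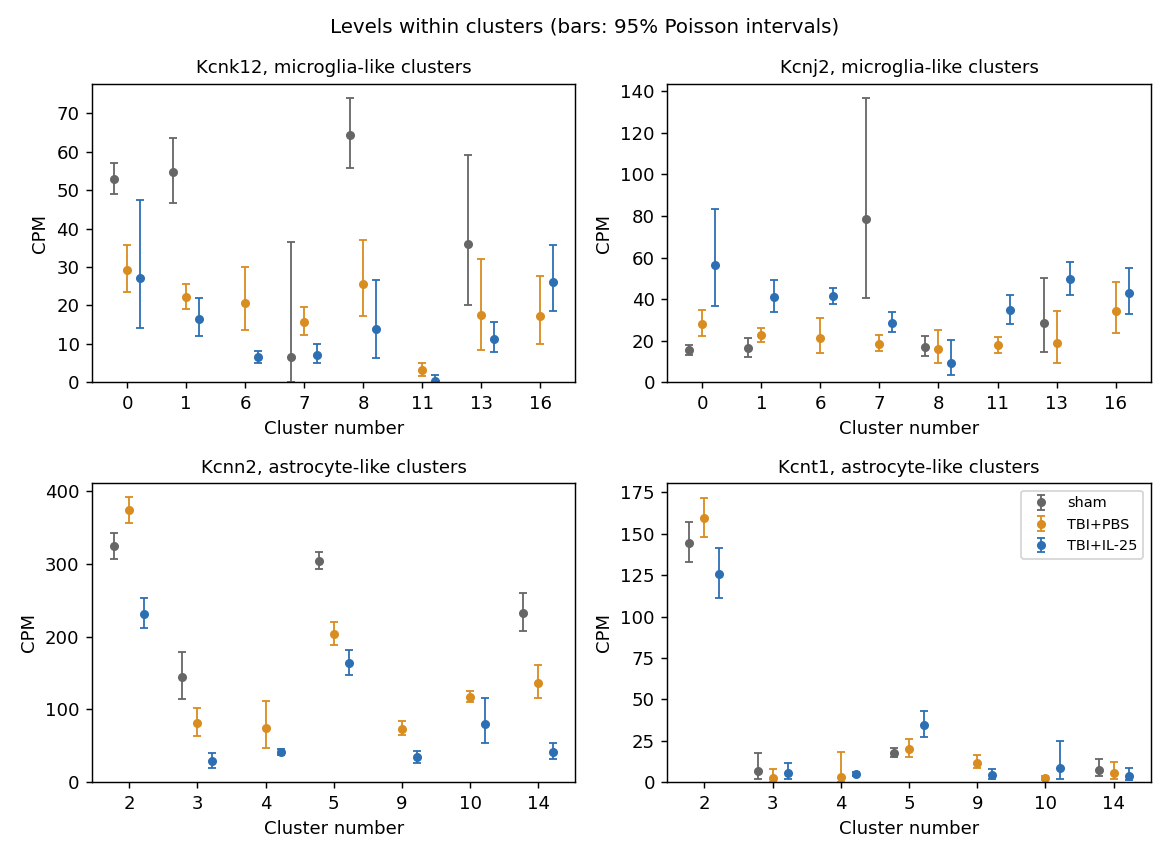
CPM with 95% Poisson intervals (vertical axis) in each cluster with at least 20 cells of a library (horizontal axis, cluster number), for Kcnk12 and Kcnj2 in microglia-like cells and Kcnn2 and Kcnt1 in astrocyte-like cells. Kcnk12 is highest in sham in clusters 0, 1, 8 and 13, Kcnn2 is lower in TBI+IL-25 than in TBI+PBS in all 7 clusters, and Kcnt1 is at most 11.8 CPM outside clusters 2 and 5.

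Kcnk6 measured 115 CPM for sham, 79.2 for TBI+PBS and 74.5 for TBI+IL-25. Both injured libraries lay below sham, with a ratio of 0.687 (0.646 to 0.729) for TBI+PBS over sham, and the injured libraries were close to each other at 0.941 (0.884 to 1.00). Inside clusters the difference from sham was smaller: Kcnk6 was lower in 5 of 5 clusters, by ratios of 0.875 to 0.987.

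Kcnj2 ran the other way. It measured 16.8 CPM for sham, 21.6 for TBI+PBS and 38.9 for TBI+IL-25 microglia-like cells. The ratios were 1.29 (1.12 to 1.48) for TBI+PBS over sham and 1.80 (1.62 to 2.00) for TBI+IL-25 over TBI+PBS, and the 3 intervals did not overlap. Against TBI+PBS, the TBI+IL-25 value was higher in 7 of 8 clusters, the exception being cluster 8. TBI+PBS against sham was mixed inside clusters, with Kcnj2 higher in 2 and lower in 3 of 5. A less counted inward rectifier, Kcnj12, measured 0.204 CPM for sham, 0.0398 for TBI+PBS and 2.58 for TBI+IL-25, where the TBI+PBS value is 1 UMI. It reached 50 UMIs through TBI+IL-25, with 72 of its 77 UMIs. Its ratio of TBI+IL-25 over TBI+PBS was 64.7, with a counting interval of 11.3 to 2592, and it was 9.13 within cluster 7, below that interval. With free RNA subtracted its TBI+PBS count fell to 0 and entered at 3 UMIs, so the 21.3 found there reflects that replacement. Kcnj9, a subunit of G protein-gated inward rectifiers, measured 2.81, 0.955 and 0.930 CPM in sham, TBI+PBS and TBI+IL-25, with a ratio of 0.340 (0.201 to 0.559) for TBI+PBS over sham and of 0.557 within cluster 0.

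Among voltage-gated genes, Kcnd1, a pore subunit of A-type current, measured 28.5 CPM for sham, 14.3 for TBI+PBS and 10.6 for TBI+IL-25. The ratio of TBI+PBS over sham was 0.502 (0.439 to 0.574), just short of a 2-fold difference, and Kcnd1 was lower in 5 of 5 clusters. Against TBI+PBS, Kcnd1 in TBI+IL-25 was lower in 5 of 8 clusters and higher in 3, and in cluster 7, which both libraries filled, it was 1.18 times as high although the class ratio was 0.742 (0.634 to 0.867). Kcna3, the pore gene of the Kv channel known from activated microglia and T cells, measured 0.255 CPM for sham, 2.23 for TBI+PBS and 2.43 for TBI+IL-25. Both injured libraries lay well above sham, at a low level, with a ratio of 8.74 (3.53 to 27.9) for TBI+PBS over sham. Kcna7, a Kv1-family gene known from muscle, measured 0.765, 0.318 and 2.18 CPM in sham, TBI+PBS and TBI+IL-25, and its ratio of TBI+IL-25 over TBI+PBS was 6.86 (3.27 to 16.6). The silent modifier Kcng2 measured 3.21, 1.27 and 1.18 CPM, with a ratio of 0.396 (0.250 to 0.616) for TBI+PBS over sham.

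Calcium-activated genes did not share a direction. Kcnn4, the intermediate-conductance channel of immune cells, measured 2.55 CPM for sham, 4.77 for TBI+PBS and 4.90 for TBI+IL-25, a ratio of 1.87 (1.34 to 2.66) for TBI+PBS over sham. Within the 3 clusters that could be compared it was higher in 1 and lower in 2. Kcnma1, the large-conductance channel, measured 12.0, 12.9 and 7.26 CPM in sham, TBI+PBS and TBI+IL-25. It was lower in TBI+IL-25 than in TBI+PBS, at 0.565 (0.472 to 0.676), and in 7 of 7 clusters. Kcnn2, a small-conductance channel gene, measured 2.60, 1.31 and 0.572 CPM in the same order, while astrocyte-like cells held far more of it. The summed astrocyte markers in microglia-like cells, all 10 of them detected, were 554, 337 and 445 CPM. No ratio of Kcnn2 was taken with free RNA subtracted, since at most 3 of its UMIs were left in each library. With doublets kept, its ratio of TBI+PBS over sham was 0.944 in place of 0.505.

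Of the remaining named genes, Kcnip3, a calcium-binding protein that acts both as a Kv4 partner and as a transcriptional repressor, measured 9.69 CPM for sham, 6.64 for TBI+PBS and 10.1 for TBI+IL-25. It was higher in TBI+IL-25 than in TBI+PBS in 7 of 7 clusters, with a class ratio of 1.52 (1.25 to 1.85). Kcnq1ot1, the long non-coding RNA of the imprinted Kcnq1 domain, measured 156, 211 and 166 CPM and was higher in TBI+PBS than in sham in 5 of 5 clusters and lower in TBI+IL-25 than in TBI+PBS in 8 of 8.

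**Figure D2:**
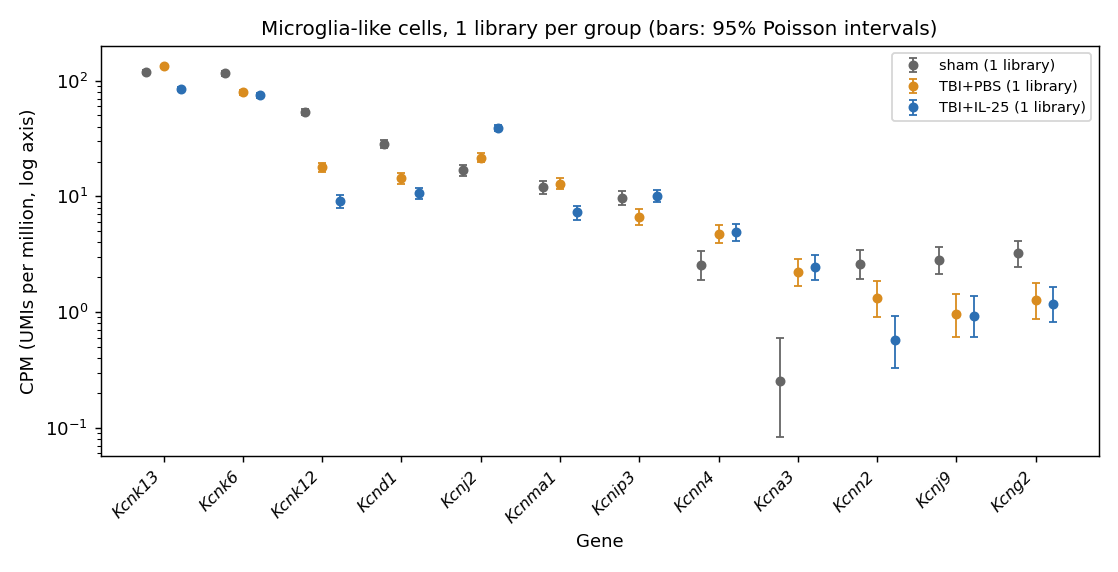
CPM on a log axis for 12 members (horizontal axis) in microglia-like cells of each library, with 95% Poisson intervals. Kcnk12 steps down from 54.0 to 17.8 to 9.09 CPM and Kcnj2 up from 16.8 to 21.6 to 38.9 CPM across sham, TBI+PBS and TBI+IL-25.

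Counted over the class, 22 members had at least 50 UMIs in microglia-like cells. In TBI+PBS against sham, 1 of the 22 was at least 2-fold higher (Kcna3), against 6.91% of 14116 genes, and 5 were at least 2-fold lower (Kcnj9, Kcna7, Kcnj12, Kcnk12 and Kcng2), against 6.58% of genes. Of these 5, Kcnj12 rested on 1 UMI against 4, with an interval of 0.00396 to 1.97, and Kcna7 on 8 against 15, with an interval of 0.153 to 1.05. Both intervals held 1, and most UMIs of these genes, 72 of 77 and 61 of 84, came from TBI+IL-25. Scaling by median-of-ratios size factors in place of class totals gave 2 higher and 5 lower, since it moved the median log2 ratio of all genes from -0.15 to -0.03. The median log2 ratio of the members was -0.46. This sign did not hold throughout: the median was 0.23 with doublets kept, 0.14 with free RNA subtracted and 0.03 within cluster 0. In TBI+IL-25 against TBI+PBS, 2 of 22 were at least 2-fold higher (Kcna7 and Kcnj12; 4.46% of 14115 genes) and 1 was at least 2-fold lower (Kcnn2; 4.25% of genes). The members' share of higher genes was 9.09% and of lower genes 4.55%, and their median log2 ratio was 0.00, beside -0.08 over all genes. Genes that passed only because 1 library was high had to differ, so these counts describe the 22 and not all members.

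Genes around the channels were counted from lists drawn up with earlier results of these data known. Over all genes, 6.91% were 2-fold higher and 6.58% lower in TBI+PBS against sham, and 4.46% and 4.25% in TBI+IL-25 against TBI+PBS. Of 8 cation-chloride cotransporters, Slc12a7 was 2-fold higher and Slc12a2 2-fold lower in TBI+PBS than in sham, and Slc12a3 was 2-fold higher in TBI+IL-25 than in TBI+PBS. Of 9 purinergic and calcium input genes, P2ry12 alone passed 2-fold after injury, on the lower side, and none did in TBI+IL-25 against TBI+PBS. Of 12 other cation and volume channels none passed 2-fold after injury, and Trpv4 was 2-fold higher and Hcn2 2-fold lower in TBI+IL-25 than in TBI+PBS. The single measured partner subunit named outside Kcn passed 2-fold in neither comparison.

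Astrocyte-like cells held most UMIs of Kcnk1, Kcnn2, Kcnj16, Kcna2 and Kcnk2. Kcnk1 encodes a weakly inward-rectifying leak channel of astrocytes. It measured 632 CPM for sham, 488 for TBI+PBS and 274 for TBI+IL-25, and the intervals did not overlap. The ratio was 0.772 (0.751 to 0.794) for TBI+PBS over sham and 0.562 (0.544 to 0.580) for TBI+IL-25 over TBI+PBS. Inside clusters the first difference was mixed, higher in 2 and lower in 2 of 4, whereas the second held in 7 of 7 clusters with ratios of 0.375 to 0.718.

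Kcnk2 and Kcnk10 encode mechano- and lipid-gated leak channels. Kcnk2 measured 116 CPM for sham, 41.4 for TBI+PBS and 29.4 for TBI+IL-25, with a ratio of 0.358 (0.330 to 0.389) for TBI+PBS over sham. It was lower in 4 of 4 clusters in that comparison, by ratios of 0.287 to 0.819, and the ratio nearest to 1 belonged to cluster 2, which holds 28.8% and 25.6% of the class in sham and TBI+PBS. Kcnk10 measured 24.0, 15.5 and 14.8 CPM in sham, TBI+PBS and TBI+IL-25. It was lower after injury in 4 of 4 clusters as well, and the injured libraries were alike at 0.955 (0.816 to 1.12). Kcnk3, an acid-sensitive leak channel, was scarce at 0.407 CPM for sham, 2.10 for TBI+PBS and 4.56 for TBI+IL-25. It was higher at each step over the class, but in both clusters that could be compared, 4 and 10, it was lower in TBI+IL-25 than in TBI+PBS, by ratios of 0.688 and 0.751.

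Of the inward rectifiers, Kcnj16 encodes the partner of the glial channel Kcnj10, which is not a member. Kcnj16 measured 78.9 CPM for sham, 122 for TBI+PBS and 123 for TBI+IL-25, a ratio of 1.54 (1.44 to 1.65) for TBI+PBS over sham and 1.01 (0.960 to 1.07) for TBI+IL-25 over TBI+PBS. It was higher after injury in 4 of 4 clusters. Kcnj10 itself measured 169, 260 and 172 CPM in the same order, so the pair did not run in parallel in TBI+IL-25. Kcnj2 measured 0.610, 1.48 and 4.93 CPM and Kcnj13 1.83, 1.63 and 3.50 CPM, both well below their levels in endothelial-like and choroid plexus-like cells. Kcnj3, a G protein-gated subunit, measured 2.78 CPM for sham, 0.574 for TBI+PBS and 0.599 for TBI+IL-25, a ratio of 0.206 (0.0988 to 0.400) for TBI+PBS over sham. In cluster 2 alone the ratio was 5.97, on few UMIs.

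The calcium- and sodium-activated genes were the family with the lowest ratios in TBI+IL-25: 4 of its 5 measured members were at least 2-fold lower than in TBI+PBS, none was higher to that extent, and the family's median log2 ratio was -1.13, beside 11.3% of all genes lower to that extent and a median of -0.21 over all genes. With size factors Kcnt1 at 0.578 and Kcnma1 at 0.534 no longer passed 2-fold, and Kcnn3 at 2.18 passed it on the higher side. Kcnn2 measured 297 CPM for sham, 176 for TBI+PBS and 72.2 for TBI+IL-25, with ratios of 0.595 (0.569 to 0.622) and 0.409 (0.385 to 0.434). In TBI+IL-25 against TBI+PBS it was lower in 7 of 7 clusters, by ratios of 0.302 to 0.803. In TBI+PBS against sham it was lower in 3 of 4 clusters and 1.15 times as high in cluster 2. Kcnn3, a related small-conductance gene, went the opposite way: it measured 47.2, 37.3 and 69.6 CPM and was higher in TBI+IL-25 than in TBI+PBS in 7 of 7 clusters, with a class ratio of 1.86 (1.71 to 2.04). Kcnn1, the remaining small-conductance gene, measured 6.31, 4.78 and 1.94 CPM.

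Kcnt1, a sodium-activated channel gene, was mostly found in a single astrocyte-like cluster. Over astrocyte-like cells it measured 49.0 CPM for sham, 40.0 for TBI+PBS and 19.8 for TBI+IL-25. In cluster 2 it measured 145, 160 and 125 CPM, and that cluster made up 28.8%, 25.6% and 13.8% of the class in the same order. Inside clusters Kcnt1 was higher in 3 and lower in 2 of 5 in TBI+IL-25 against TBI+PBS, with ratios of 0.349 to 3.59. That count weighs clusters with little Kcnt1 the same as cluster 2. In cluster 2 it was lower too, at 125 against 160 CPM. This difference was smaller than the class ratio of 0.495 (0.439 to 0.556). Kcnma1 measured 28.0, 23.5 and 10.7 CPM in sham, TBI+PBS and TBI+IL-25, and it was lower in TBI+IL-25 than in TBI+PBS in 6 of 7 clusters. Against sham, Kcnma1 in TBI+PBS was higher in 3 of 3 clusters although the class ratio was 0.840 (0.736 to 0.960).

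Among Kv genes, Kcna2, a delayed rectifier subunit, measured 79.1 CPM for sham, 92.1 for TBI+PBS and 103 for TBI+IL-25 and was higher after injury in 4 of 4 clusters. Kcnq3, a subunit of the M-type channel, measured 43.1, 19.1 and 14.8 CPM, with a ratio of 0.444 (0.391 to 0.504) for TBI+PBS over sham and lower values in 3 of 3 clusters. In TBI+IL-25 against TBI+PBS the class ratio of Kcnq3 was 0.774 (0.666 to 0.898), but it was higher in 6 of 7 clusters. The ratios in those 7 clusters ranged only from 0.965 to 1.21.

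The A-type genes differed from each other. Kcnd2 measured 41.2, 37.4 and 31.3 CPM in sham, TBI+PBS and TBI+IL-25 and, like Kcnt1, sat mostly in cluster 2. There it measured 112, 117 and 178 CPM, so within that cluster the order was the reverse of the class. Kcnd3 measured 9.15, 17.1 and 13.3 CPM, with a ratio of 1.87 (1.53 to 2.30) for TBI+PBS over sham and higher values in 3 of 3 clusters. Kcnh7, an erg-type channel gene, was highest in TBI+IL-25, at 5.21 CPM against 3.32 in sham and 1.77 in TBI+PBS.

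Of the accessory genes, Kcnip3 measured 66.5 CPM for sham, 115 for TBI+PBS and 165 for TBI+IL-25. The ratios were 1.73 (1.61 to 1.87) and 1.43 (1.36 to 1.5), and Kcnip3 was higher in 4 of 4 and in 6 of 7 clusters in the corresponding comparisons. Kcnab1, a cytoplasmic Kv beta subunit, measured 3.32, 5.07 and 12.0 CPM. Kcne1l, a single-span beta subunit, measured 15.3 CPM in both sham and TBI+PBS and 5.90 for TBI+IL-25, and the silent modifier Kcng2 0.542, 2.06 and 0.645 CPM. The non-coding Kcnq1ot1 measured 228, 214 and 110 CPM and was lower in TBI+IL-25 than in TBI+PBS in 7 of 7 clusters, with a class ratio of 0.512 (0.487 to 0.538).

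**Figure D3:**
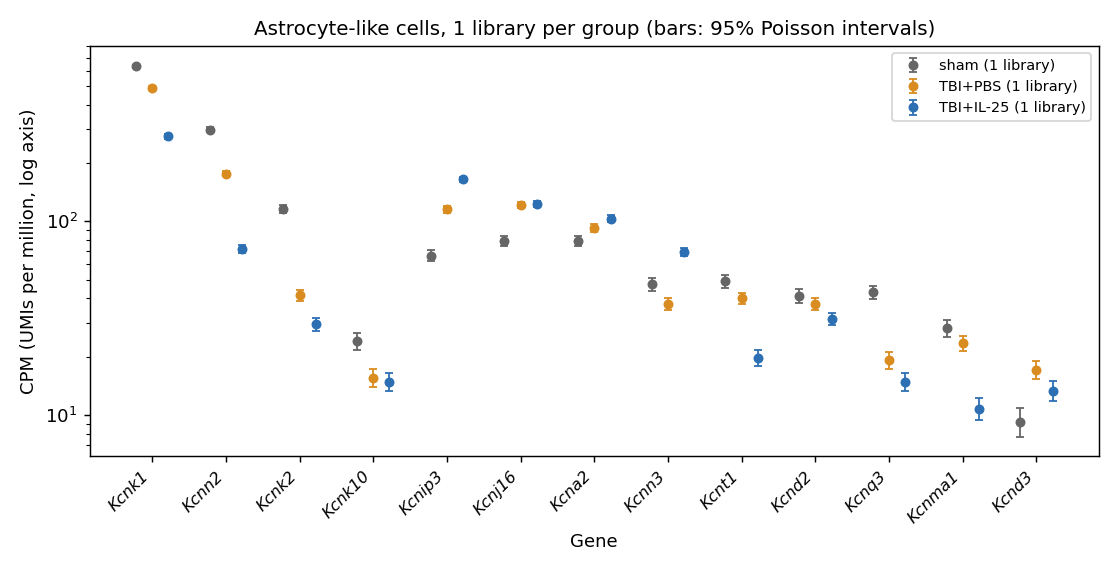
CPM on a log axis for 13 members (horizontal axis) in astrocyte-like cells of each library, with 95% Poisson intervals. Kcnk1, Kcnn2, Kcnk2 and Kcnq3 step down from sham to TBI+PBS to TBI+IL-25, whereas Kcnip3 steps up.

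Over astrocyte-like cells 41 members had at least 50 UMIs. In TBI+PBS against sham 3 were at least 2-fold higher (Kcnk3, Kcnj2 and Kcng2; 7.12% of 15415 genes) and 3 at least 2-fold lower (Kcnk2, Kcnj3 and Kcnq3; 4.74% of genes), and both members' shares were 7.32%. The intervals of 8 members lay above 1 and those of 18 below 1. The matching share over all genes is not given, so these interval counts are not read as a trait of the members. In TBI+IL-25 against TBI+PBS 5 were at least 2-fold higher (Kcnj13, Kcnh7, Kcnab1, Kcnk3 and Kcnj2; 3.83% of genes) and 7 at least 2-fold lower (among them Kcnt1, Kcne1l, Kcnn1, Kcnma1, Kcnn2 and Kcng2; 11.3% of genes). The members' shares were 12.2% and 17.1%. Some of these members reached 50 UMIs only through 1 library. Kcng2 held 43 of its 65 UMIs in TBI+PBS, Kcnj3 41 of 66 in sham and Kcnj2 107 of 147 in TBI+IL-25. Such genes had to differ, so these counts describe the 41 and not all members. With size factors, which moved the median log2 ratio of all genes from -0.21 to 0.02, the counts were 6 higher and 5 lower. The members' median log2 ratio was -0.25 after injury, beside -0.05 over all genes, and -0.37 in TBI+IL-25 against TBI+PBS, beside -0.21. Summed microglia markers in astrocyte-like cells, all 10 detected, were 1376, 1088 and 659 CPM in sham, TBI+PBS and TBI+IL-25. Their part in the low-level members that are highest in microglia-like cells, such as Kcnk6 at 4.14, 2.25 and 1.24 CPM, was not tested.

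The largest clusters of the class differed between libraries. Cluster 5 held 45.3% of astrocyte-like cells in sham, against 13.1% and 10.4% in the TBI+PBS and TBI+IL-25 libraries. Cluster 4 held 40.8% of TBI+IL-25 but 1.3% of TBI+PBS cells, and cluster 10 held 23.8% of TBI+PBS but 1.2% of TBI+IL-25 cells. In the microglia-like class the same was true of cluster 6, with 37.0% of TBI+IL-25 and 4.6% of TBI+PBS cells.

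Genes around the channels were counted from the same lists, beside 7.12% of all genes 2-fold higher and 4.74% lower in TBI+PBS against sham and 3.83% and 11.3% in TBI+IL-25 against TBI+PBS. None of 8 cotransporters reached 2-fold in either comparison. Of 3 measured partner subunits named outside Kcn, Lingo1 was 2-fold lower in TBI+PBS than in sham, at 11.3 and 23.3 CPM. Of 12 other cation and volume channels, Piezo1, a mechanically gated channel, measured 9.71 CPM in TBI+PBS and 3.12 in sham, and the proton channel gene Hvcn1 1.39 and 3.32. Between the injured libraries, Lrrc8b, a volume-regulated anion channel subunit, was 3.16 times as high in TBI+IL-25, while Trpm7 measured 76.8 CPM against 191 and Trpm4 1.52 against 3.40. Of 9 purinergic and calcium input genes, P2ry6 passed 2-fold on the higher side and P2ry12 on the lower side in both comparisons. P2ry12 is itself 1 of the 10 microglia markers, measured 138, 50.6 and 23.4 CPM in astrocyte-like cells of sham, TBI+PBS and TBI+IL-25, and stepped down in the same order as their sum of 1376, 1088 and 659 CPM, whose part in it was not tested.

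Oligodendrocyte-like cells (45, 217 and 643 cells) were marked by Kcna1, the Kv subunit of juxtaparanodal and glial channels. It measured 606 CPM for sham, 729 for TBI+PBS and 657 for TBI+IL-25, above the next class at 27.3 to 30.8 CPM. Kcna6, of the same Kv subfamily, measured 104, 71.1 and 144 CPM and Kcnq3 69.5, 88.6 and 136 CPM. Kcna2 measured 63.0 CPM in sham and 32.1 and 31.0 in the injured libraries. Kcnk13 measured 148, 145 and 113 CPM here, a range that overlapped that of microglia-like cells, so the order of these classes is not separated. Of 7 measured members none reached 2-fold in TBI+PBS against sham, beside 9.06% of genes higher and 2.45% lower. In TBI+IL-25 against TBI+PBS, Kcna6 was higher at 2.02 (1.68 to 2.45), beside 5.05% of genes, and Kcnq1ot1 lower at 0.477 (0.404 to 0.563), beside 5.65%.

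Choroid plexus-like cells (44, 68 and 117 cells) held Kcnj13, the apical inward rectifier of this epithelium, at 743 CPM for sham, 561 for TBI+PBS and 669 for TBI+IL-25. Kcne2, a beta subunit of choroid plexus channels, measured 248, 280 and 244 CPM and Kcnk1 244, 234 and 255. Kcnh1 measured 30.2, 49.7 and 38.5 CPM and Kcnh2 30.2, 27.6 and 34.0, both above every other ranked class. None of 6 measured members reached 2-fold in either comparison, beside 3.87% of genes higher and 2.83% lower in TBI+PBS against sham and 4.0% and 2.67% in TBI+IL-25 against TBI+PBS. The sole interval in each comparison that left out 1 was that of Kcnj13, at 0.756 (0.645 to 0.884) and 1.19 (1.04 to 1.37).

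Neuroblast-like cells (254, 263 and 140 cells) held Kcnc1, a fast Kv subunit, at 60.0 CPM for sham, 79.6 for TBI+PBS and 111 for TBI+IL-25. Its ratios were 1.33 (1.03 to 1.71) and 1.39 (1.06 to 1.82). Kcnn2 measured 70.0, 51.0 and 70.1 CPM and Kcnk2 47.5, 59.4 and 39.4. Kcnk10, Kcne1l and Kcnh7 were also highest in this class, at 36.9 to 48.2, 41.5 to 49.2 and 29.5 to 46.7 CPM. None of 11 measured members reached 2-fold after injury, beside 0.797% of genes higher and 0.633% lower, nor in TBI+IL-25 against TBI+PBS, beside 1.99% and 5.95%. Ependymal-like cells, read only in TBI+PBS and TBI+IL-25 (27 and 49 cells), held Kcnmb1 at 126 and 194 CPM and Kcnmb4 at 110 and 38.3 CPM, both beta subunits of the large-conductance calcium-activated channel, whose pore gene Kcnma1 measured 25.7 and 30.1 CPM there.

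Vascular and blood-derived classes were small. Endothelial-like cells (37, 228 and 49 cells) held Kcnj2 at 15.4 CPM for sham, 34.1 for TBI+PBS and 94.6 for TBI+IL-25. The ratio of TBI+IL-25 over TBI+PBS was 2.77 (1.53 to 4.91), and it was the sole one of 3 measured members at least 2-fold higher there, beside 4.1% of genes, and none was as much lower, beside 8.4%. In TBI+PBS against sham Kcnj2 again passed 2-fold, beside 9.33% of genes higher and 3.36% lower, but rested on 2 sham UMIs, with an interval of 0.573 to 19.0. Kcnj8, the pore of the ATP-sensitive channel of mural cells, had 0 UMIs in sham, where 3 UMIs would be 23.0 CPM and the exact Poisson upper limit is 28.3 CPM, and measured 35.0 and 61.5 CPM in TBI+PBS and TBI+IL-25. The summed pericyte markers in the class, all 8 detected, were 345, 1071 and 2133 CPM in the same order of libraries, and their part in Kcnj8 was not tested.

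Monocyte/macrophage-like cells (248 cells for TBI+PBS, 106 for TBI+IL-25 and too few for sham) held Kcnn4 at 84.8 and 35.5 CPM, a ratio of 0.419 (0.257 to 0.651), and the beta subunit gene Kcnab2 at 32.8 and 14.5 CPM, a ratio of 0.443 (0.196 to 0.883). These were the 2 of 4 measured members at least 2-fold lower in TBI+IL-25, beside 6.64% of genes, and none was as much higher, beside 2.46%. In T cell-like cells (65 and 92 cells) Kcnn4 measured 54.2 and 54.5 CPM, so the libraries were close there, and the levels of both classes overlapped. The sole member with 50 UMIs in T cell-like cells, Kcnq1ot1, measured 180 and 91.9 CPM and did not reach 2-fold, beside 3.55% of genes higher and 5.13% lower. The summed border-associated macrophage markers in monocyte/macrophage-like cells were 2445 CPM for TBI+PBS and 792 CPM for TBI+IL-25, and their part in the Kcnn4 difference was not tested.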

How the data were processed

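Per the submitters' processing notes, the authors used Cell Ranger 7.2.0 and the mouse build GRCm39, and the deposited matrices hold raw UMI counts per gene and barcode. Per the file headers, the TBI+IL-25 matrix came from version 7.2.0 but both others from 7.1.0, so in comparisons with TBI+IL-25 version and group cannot be told apart.

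Barcodes under 500 UMIs or 300 genes, or over 20% mitochondrial UMIs, were dropped, and 211, 301 and 635 likely doublets (scanpy Scrublet score above 0.2) were removed. Cells were clustered with scanpy 1.11.5 on 2000 variable genes without Kcn genes (30 components, Leiden resolution 1). A cluster was named from at least 3 markers, with thresholds set after the data were seen. UMIs were summed per class and library and divided by the class total (CPM). Ratios need 50 UMIs in the class over the 3 libraries and 30 cells in both, and have exact conditional binomial intervals. Levels need 20 cells and have exact Poisson intervals. PCR and dissociation error are not covered. A count of 0 enters at 3 UMIs. "At least 2-fold" is a size, not a test. The ratio and interval computation was run on simulated Poisson counts without library or cluster differences. That run checks the code only and lends no weight to any ratio. Members, gene lists and tests were chosen with earlier results of these data known. Genes were named by a rule: the 3 highest members per class, the 6 highest and 6 lowest ratios in microglia-like and astrocyte-like cells, the 2 highest and lowest elsewhere, and members with at least 1000 UMIs. Other members are named to complete a count or a class. Counts within each cluster (at least 10 UMIs in 1 library) were chosen after seeing the data. UMI levels are not divided by gene length and compare a gene across cells, and some genes and 1 gene list are not reported here. The counting of overlapping or antisense genes is not given in the sources used here.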

Additional observations from a re-analysis of the deposited data

How the results depend on the processing

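Counts of members past 2-fold are small, and most of them moved with the settings. Shares over all genes are given here for the main settings only. The number of members measured with a lower minimum or with none is not given either. Counts under the other settings therefore show only how the members' counts moved, and they are not read as a trait of the members. In microglia-like cells, TBI+PBS against sham gave 1 higher and 5 lower in the main analysis. The higher count was 2 with size factors, 3 with a minimum of 20 UMIs or with doublets kept, 0 with a minimum of 200 or within the cluster filled by both libraries, 5 with no minimum and 4 at 1.5-fold. The lower count was 10 with a minimum of 20, 1 with 200, 15 with none, 8 at 1.5-fold, 2 at 3-fold and 0 within the cluster. For TBI+IL-25 against TBI+PBS (2 higher, 1 lower), the higher count was 5 with a minimum of 20, 0 with 200, 8 with none, 5 at 1.5-fold, 5 with doublets kept and 1 within the cluster. The lower count was 5 with a minimum of 20, 0 with 200, 11 with none, 4 at 1.5-fold, 0 at 3-fold, 2 with each cell weighed equally, and 0 with doublets kept or free RNA subtracted.

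In astrocyte-like cells, TBI+PBS against sham (3 higher, 3 lower) gave a higher count of 5 with a minimum of 20, 0 with 200, 7 with none, 7 at 1.5-fold and 0 within the cluster. The lower count was 6 with a minimum of 20, 8 with none, 10 at 1.5-fold, 1 at 3-fold and 0 within the cluster, where the median log2 ratio was 0.17. For TBI+IL-25 against TBI+PBS (5 higher, 7 lower), the higher count was 1 with a minimum of 200, 9 with none, 1 at 3-fold and 0 within the cluster. The lower count was 12 with no minimum, 17 at 1.5-fold, 2 at 3-fold, 4 with each cell weighed equally and 2 within the cluster. A stricter minimum or the single cluster leaves fewer members (7 to 27), and for the other settings the cause was not tested. As in microglia-like cells, no share over all genes is given beside these counts, so they are not set against what all genes did.

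Of 352 recomputed ratios of named members, 300 stayed within the main counting interval, 47 moved outside it and 5 reversed, all of them within the cluster filled by both libraries. Those were Kcnd1 in microglia-like cells (1.18, TBI+IL-25 over TBI+PBS), Kcnj3 (5.97) and Kcnn2 (1.15) in astrocyte-like cells (TBI+PBS over sham), and Kcnma1 (1.10) and Kcnt1 (2.46) in astrocyte-like cells (TBI+IL-25 over TBI+PBS). In that last comparison the cluster was number 3, whose cells are shallow. Within the cluster used, Kcnj3, Kcnt1 and the astrocyte-like Kcnj2 (1.42, below) each held under 10 UMIs in both libraries compared. Ratios that moved by over 1.5 times, those 5 included, were 13 within the cluster, 4 with each cell weighed equally, 2 with doublets kept and 2 with free RNA subtracted. Among them, in microglia-like cells, were Kcnk12 (0.550) and Kcnj9 (0.557) within the cluster and Kcnn2 (0.944) with doublets kept for TBI+PBS over sham. For TBI+IL-25 over TBI+PBS they were Kcnj12 (9.13 within the cluster, 21.3 with free RNA subtracted) and Kcnn2 (0.130 within the cluster, 0.756 with doublets kept). The 21.3 of Kcnj12 rests on a TBI+PBS count of 0 entered at 3 UMIs. In astrocyte-like cells, TBI+PBS over sham, they were Kcnk2 (0.819), Kcng2 (12.4) and Kcnj2 (1.42) within the cluster and Kcng2 (5.91), Kcnj2 (4.57) and Kcnk3 (further above 1) with each cell weighed equally. For TBI+IL-25 over TBI+PBS they included Kcnk3 (1.38 with each cell weighed equally) and Kcnj2 (5.24 with free RNA subtracted). No paired analysis was possible because each group has 1 library, which the labels number 1 in all 3 groups, and no library can be left out. In the 2 comparisons the counting intervals of 9 and 12 of 22 members in microglia-like cells and of 15 and 13 of 41 in astrocyte-like cells held 1, among them scarce members such as Kcna7 (8 against 15 UMIs) and well-counted ones such as Kcnk6 at 0.941 (0.884 to 1.00). The share of all genes whose intervals held 1 is not given here.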
